A study of Drosophila melanogaster with 5 samples.

Results

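Sarcomere genes were followed in RNA from whole heads of Drosophila melanogaster pupae. The members were 10 genes of the contractile apparatus, Mhc, Act88F, Act79B, up, wupA, TpnC41C, Mlc2, fln, bt and sls, and a probe set was taken where the array's annotation gave it that gene and no other. Of the 10 genes, 8 had such a probe set, 13 probe sets in all among the 13966 tested and 8 genes among the 10844 named. Mhc (myosin heavy chain) and wupA (troponin I) were not analysed here. The mutant strain carried otd-uvi, an allele of oc (orthodenticle, otd) that the labels describe as specific to the eye, and gave 3 arrays. The wild-type strain Canton S gave 2 arrays. Each array was prepared, with a biotin label, from total RNA of a separate extraction of 15 to 20 heads taken 80 h after pupa formation. The sex of the pupae is not given in the sources used here. Each group was 1 strain, so differences in strain background cannot be told apart from the allele. Whole heads pool all their cell types, so fewer muscle cells and less RNA per muscle cell cannot be told apart either.

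A sarcomere is the repeating unit of striated muscle, in which thick filaments of myosin pull on thin filaments of actin. Troponin and tropomyosin on the thin filament respond to calcium and switch contraction on, and titin-like proteins link the filaments to the Z discs at the ends of the unit. Flies build muscles of different types from partly different genes. The fibrillar indirect flight muscles lie in the thorax and use their own actin (Act88F), flightin (fln) and a troponin C isoform (TpnC4), while tubular muscles of the legs, the jump muscle and the body use other isoforms, and proteins such as Mlc2 and up serve muscles in general. Muscles inside the head move the mouthparts and the feeding pump.

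Values are MAS5 signals on a linear scale, and each log2 difference is the otd-uvi mean minus the Canton S mean of log2(signal + 8), a scale that understates the change of dim probe sets. The median signal was 41.8 to 43.1 on the otd-uvi arrays and 39.96 to 41.3 on the Canton S arrays. The array carries 8 probe sets for mouse and yeast transcripts as negative controls, and the brightest of them reached 11.2 to 22.9 in otd-uvi and 9.13 to 9.30 in Canton S. Of the 13 sarcomere probe sets, 11 exceeded that level on all 5 arrays and 2 of the 4 for sls exceeded it on no array. For the actin, GAPDH and eIF-4a controls the signal near the 3-prime end over that near the 5-prime end rises as RNA degrades; its log2 value averaged 1.32, 1.68 and 1.88 on otd-uvi arrays 1, 2 and 3, against 1.41 and 1.37 on Canton S arrays 1 and 2. The targeted gene oc (143425_at) had signals of 27.6, 46.8 and 59.8 in otd-uvi and 71.7 and 56.4 in Canton S (log2 difference -0.49, adjusted p = 0.527 in limma).

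The comparison asked which transcripts of the developing head differ in the otd-uvi mutant, and here what muscle transcripts did. By limma, with p-values adjusted over all probe sets, 0 of the 8 sarcomere genes passed an adjusted p of 0.05 in either direction, where 0.773% of all probe sets passed (0.322% higher and 0.451% lower in otd-uvi). The 2 genes of flight-muscle type, Act88F and fln, had the largest differences of the 8, both higher in otd-uvi by about the same amount, and both were the members with an unadjusted p under 0.05, where 15% of all probe sets had one (7.77% higher and 7.27% lower in otd-uvi). Between the strains 3 of the 8 genes did not overlap on any array, 2 higher and 1 lower in otd-uvi, near the 34% of all probe sets that did not overlap (18.6% higher and 15.4% lower). The other 6 genes had log2 differences between -0.41 and 0.29. The median of the 8 genes was -0.01, beside 0.05 over all probe sets tested. Of the 8, 4 were above 0 and 4 below, whereas 55.2% of all probe sets were above 0.

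**Figure D1:**
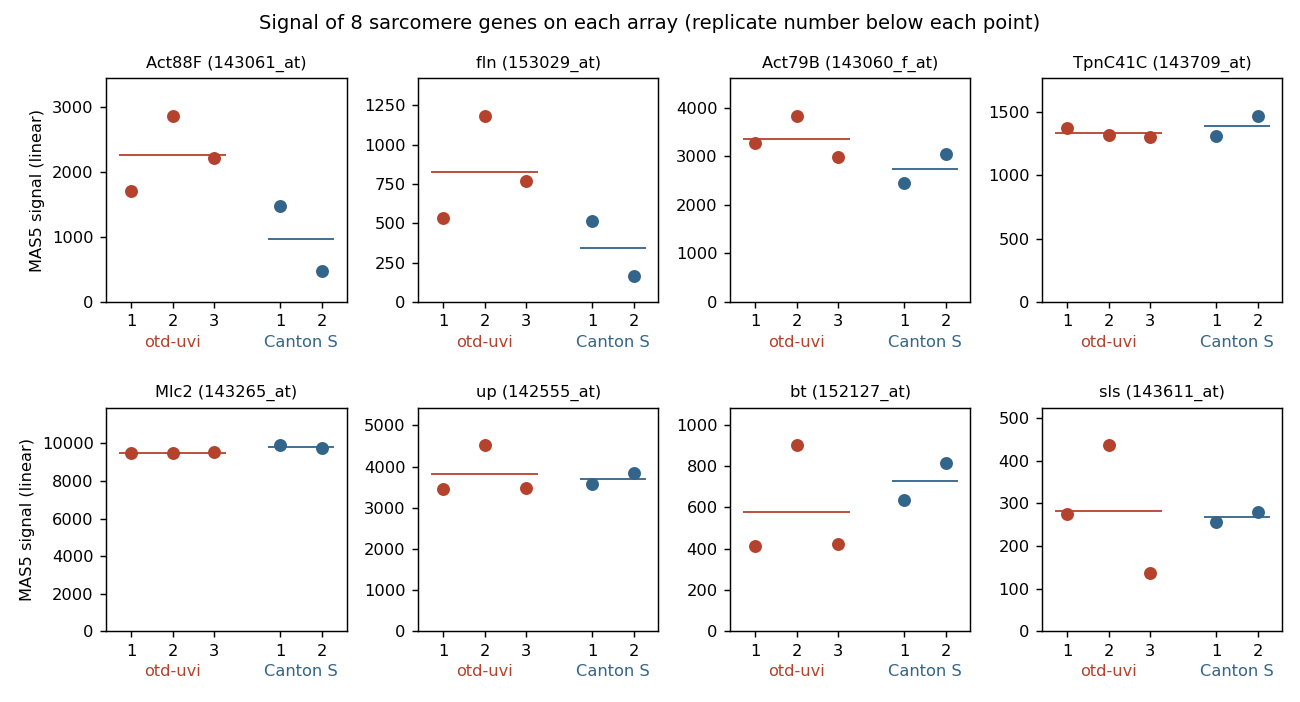
MAS5 signal (linear, each axis from 0) of the probe set that stands for each of 8 sarcomere genes, by array; points are single arrays of otd-uvi (red, 3) and Canton S (blue, 2), and horizontal lines are group means. For Act88F and fln Canton S replicate 2 lies far below the other 4 arrays, whereas TpnC41C is nearly level; Mlc2 lies close to the top of the arrays' signal range.

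Act88F (143061_at), the actin of the flight muscle thin filament, had signals of 1707, 2871 and 2216 on otd-uvi arrays 1, 2 and 3, against 1478 and 470.4 on Canton S arrays 1 and 2. The groups did not overlap, but Canton S replicate 1 lay close to the lowest otd-uvi array and Canton S replicate 2 stood apart from all the others. On the log2 scale otd-uvi was higher by 1.40 (SE 0.45, 95% interval 0.35 to 2.45, adjusted p = 0.227 in limma), or 2.64-fold. Actin genes are closely alike in sequence, so an actin probe set may also take up RNA of another actin gene.

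Flightin, the product of fln, is a thick-filament protein known from flight muscle, where it stiffens the filament. Its probe set (153029_at) gave 533, 1184 and 768 in otd-uvi, and 516 and 167 in Canton S. The order of the arrays was the same as for Act88F: otd-uvi 2 highest, then otd-uvi 3, otd-uvi 1, Canton S 1 and Canton S 2. The lowest otd-uvi array was barely above the higher Canton S array. The log2 difference was 1.39 (SE 0.48, 95% interval 0.25 to 2.53, adjusted p = 0.257 in limma).

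For both genes the Canton S arrays differed from each other by more than the strains differed on average. Canton S array 1 exceeded array 2 by 3.14-fold for Act88F and 3.09-fold for fln, ratios larger than those of 97.7% and 97.5% of the brighter 60% of probe sets. Among the otd-uvi arrays the highest exceeded the lowest by 1.68-fold for Act88F and 2.22-fold for fln. Without Canton S replicate 2 the log2 differences were 0.58 for Act88F and 0.60 for fln, and without Canton S replicate 1 they were 2.22 and 2.18. Because the groups did not overlap, leaving out 1 array could not bring either difference to 0 or below. Neither gene passed the adjusted threshold in the fits without 1 otd-uvi array.

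**Figure D2:**
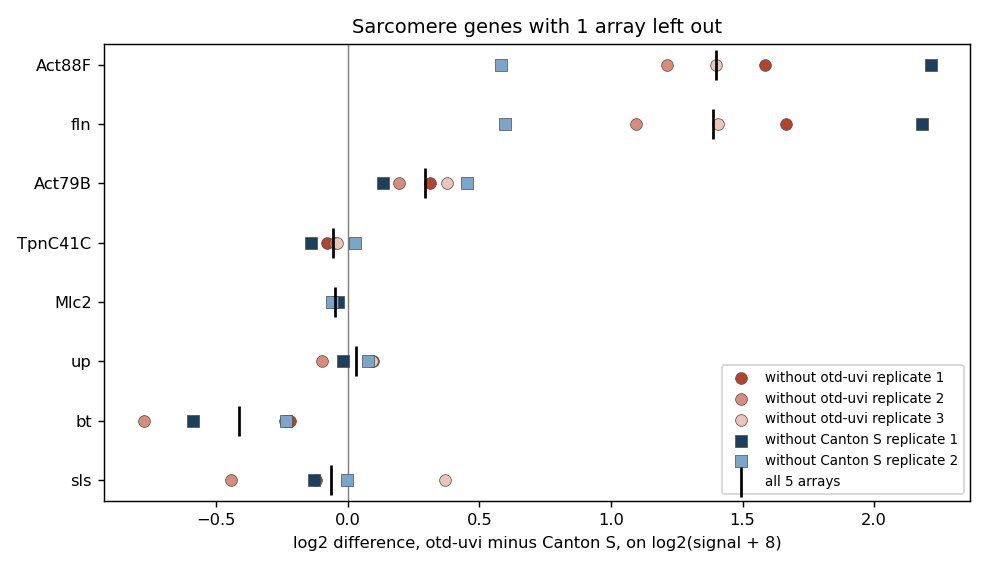
Log2 differences (otd-uvi minus Canton S, on log2(signal + 8)) of 8 sarcomere genes with all 5 arrays (black bar) and with 1 array left out (circles, an otd-uvi array; squares, a Canton S array). Act88F spans 0.58 to 2.22 and fln 0.60 to 2.18, both ends set by which Canton S array remained, whereas TpnC41C stays within -0.14 to 0.03; Mlc2 is close to the top of the signal range, where differences may be understated.

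Genes of the tubular and jump muscle types showed smaller differences. Act79B (143060_f_at), an actin of tubular muscles such as those of the legs, had signals of 3268, 3839 and 2981 in otd-uvi, and 2440 and 3043 in Canton S. The groups overlapped, with the lowest array in Canton S and the highest in otd-uvi, and the log2 difference was 0.29 (SE 0.16, 95% interval -0.08 to 0.67, adjusted p = 0.431 in limma). The suffix of this probe set marks one that several genes of a family share, so its signal is uncertain as to which actin it measures. TpnC41C (143709_at), a troponin C isoform of jump and other tubular muscles, was among the steadiest of the members. It gave 1377, 1319 and 1306 in otd-uvi, and 1309 and 1471 in Canton S, and its log2 difference was -0.06 (SE 0.12, 95% interval -0.33 to 0.22, adjusted p = 0.849 in limma). In contrast to Act88F and fln, both Act79B and TpnC41C were higher on Canton S replicate 2 than on Canton S replicate 1.

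Of the general muscle genes, Mlc2 (143265_at), which encodes the regulatory light chain of muscle myosin, had signals of 9500.0, 9461 and 9562 in otd-uvi, and 9897 and 9746 in Canton S. The otd-uvi arrays were all slightly lower, yet the log2 difference was -0.05 (SE 0.11, 95% interval -0.30 to 0.21, adjusted p = 0.868 in limma). The probe set ranked number 2 by signal on each of the 5 arrays, whose brightest probe sets reached 9886 to 10546, so values near the top of the range may understate a difference. Troponin T, the product of up, ties the troponin complex to tropomyosin. The brighter probe set for up (142555_at) gave 3454, 4517 and 3474 in otd-uvi, and 3582 and 3835 in Canton S. Both Canton S arrays lay within the otd-uvi range, and the log2 difference was 0.03 (SE 0.15, 95% interval -0.33 to 0.39, adjusted p = 0.945 in limma). The dimmer one (151619_at) ran from 164 to 292 in otd-uvi, against 210.3 and 271 in Canton S, and also overlapped (log2 difference -0.14, 95% interval -0.73 to 0.46).

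The 2 titin-like proteins of the list were more scattered among the otd-uvi arrays. Projectin, the product of bt, connects thick filaments to the Z disc. Its brighter probe set (152127_at) had signals of 413, 901 and 425 in otd-uvi, and 638 and 817 in Canton S. Here otd-uvi 2 was the highest of the 5 arrays and the other otd-uvi arrays were the lowest, and the log2 difference was -0.41 (SE 0.34, 95% interval -1.20 to 0.38, adjusted p = 0.597 in limma). The dimmer probe set for bt (150988_at) gave 83.6, 83.2 and 23.5 in otd-uvi, and 86.9 and 97.4 in Canton S. Its groups did not overlap, though the gap was small except for otd-uvi 3, and the log2 difference was -0.64 (SE 0.48, 95% interval -1.76 to 0.48, adjusted p = 0.563 in limma). Without otd-uvi replicate 3 it was -0.13.

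The gene sls encodes Sallimus, the titin-like spring of the Z disc and I band. Its brightest probe set (143611_at) gave 276, 436 and 136 in otd-uvi, and 255 and 279 in Canton S. A second (142465_at) gave 290.4, 329 and 186 in otd-uvi, and 267 and 231 in Canton S. In both, otd-uvi 2 was highest and otd-uvi 3 lowest with Canton S in between, and the log2 differences were -0.07 (95% interval -1.05 to 0.92) and 0.07 (95% interval -0.51 to 0.65), with adjusted p of 0.957 and 0.915 in limma. Another pair of probe sets, 148020_at and 151579_s_at, were not well above the control level on any array, so no fold is given for them. Their signals ran from 1.38 to 1.98 and from 4.43 to 10.6 in otd-uvi, against 1.89 to 2.20 and 1.56 to 3.15 in Canton S.

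**Figure D3:**
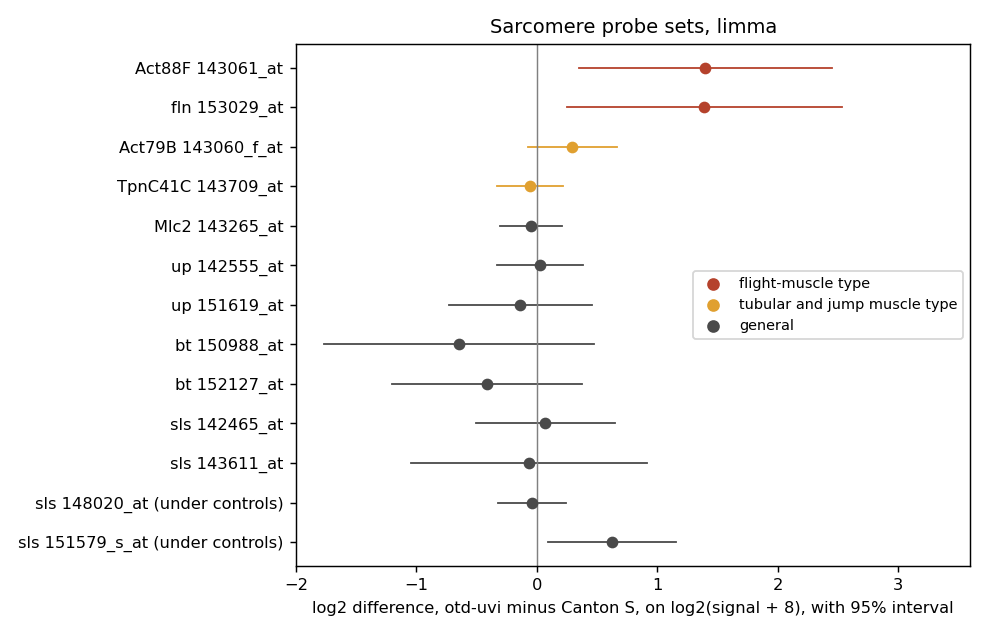
Log2 difference with its 95% interval from limma for each of 13 sarcomere probe sets (otd-uvi minus Canton S, on log2(signal + 8)), coloured by muscle type. Act88F at 1.40 and fln at 1.39 stand to the right of the rest, with intervals about 2 log2 units wide; the probe sets marked as under controls measured no signal above background.

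Across the muscle types, otd-uvi 2 was often the highest array, while the lowest array varied. Of the 11 probe sets above the controls, 8 were highest on otd-uvi replicate 2: those for Act88F, Act79B, fln and up, the brighter one for bt, and 2 for sls. Over all 8240 probe sets above the controls on every array, otd-uvi 2 was the highest for 17.1%. The lowest array was otd-uvi 3 for 4 of the 11 and otd-uvi 1 for 3, whereas Canton S 2 was lowest for Act88F and fln. Over all 8240, otd-uvi 3 was lowest for 22.9%, otd-uvi 1 for 24.3% and Canton S 2 for 22.9%. Relative to the Canton S mean, the mean of Act88F and fln stood at 0.93, 1.87 and 1.38 on otd-uvi arrays 1, 2 and 3, against 0.80 and -0.80 on Canton S arrays 1 and 2. The mean of up, Mlc2, bt and sls stood at -0.22, 0.31 and -0.46 in otd-uvi, against -0.07 and 0.07 in Canton S. Within it bt alone stood at -0.80, 0.32 and -0.76 in otd-uvi, and sls at 0.05, 0.69 and -0.93. The mean also held Mlc2, close to the top of the signal range, where differences may be understated. Subtracting that general mean from the flight-type mean gave a difference between strains of 1.52, with no overlap between the groups and no test, since it is a score over chosen members. It was 0.64 without Canton S replicate 2 and 2.39 without Canton S replicate 1.

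**Figure D4:**
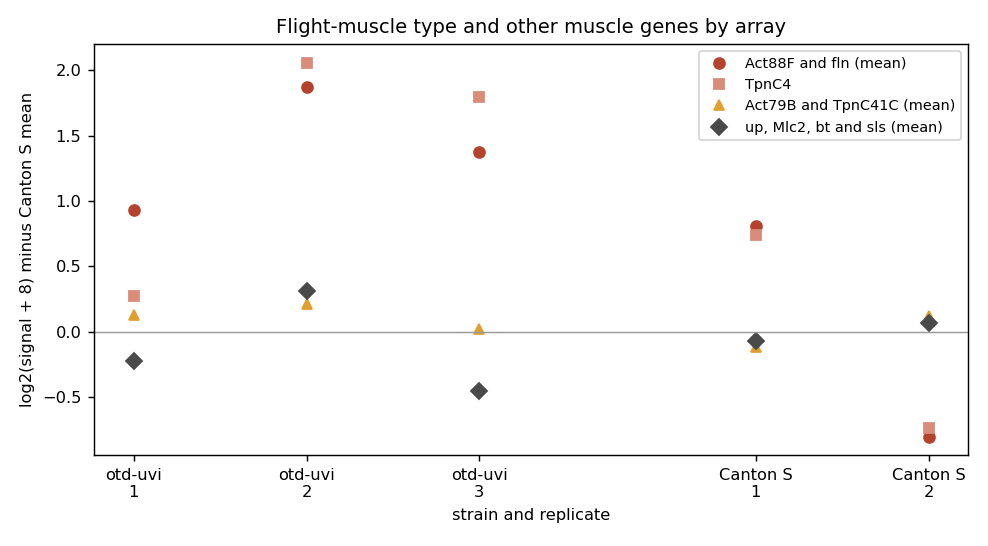
Log2(signal + 8) minus the Canton S mean on each array, for the mean of Act88F and fln, for TpnC4, for the mean of Act79B and TpnC41C and for the mean of up, Mlc2, bt and sls; each point is 1 array and replicates have no order. The flight-muscle type genes and TpnC4 lie at or below -0.74 on Canton S replicate 2 and above 0 on all otd-uvi arrays. The Canton S arrays mirror each other around 0, because their mean is the reference. The means of the other classes stay within -0.46 and 0.31, although bt alone reaches -0.80 and sls -0.93.

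Another flight-muscle gene was not a member but had a probe set of its own. TpnC4 (146645_at), the calcium sensor isoform tied to stretch activation of flight muscle, gave 73.3, 272 and 225 in otd-uvi, and 104 and 32.3 in Canton S. Its groups overlapped, because otd-uvi 1 lay under Canton S 1, but its highest and lowest arrays were again otd-uvi 2 and Canton S 2. The log2 difference was 1.38 (SE 0.61, 95% interval -0.06 to 2.81, adjusted p = 0.349 in limma), and it was 0.64 without Canton S replicate 2 and 2.11 without Canton S replicate 1. All 3 flight-muscle genes exceeded the control level on all 5 arrays, although the indirect flight muscles lie in the thorax and the labelled tissue is head. Their summed signal was 2314, 4327 and 3208 in otd-uvi, and 2099 and 669.9 in Canton S. Which cells gave these signals was not tested.

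Markers of other cell types changed in both directions on the same arrays. The 6 measured photoreceptor markers (of 8) had a summed signal of 6495 to 7717 in otd-uvi and 13469 to 14433 in Canton S, all 6 exceeded the control level on all 5 arrays, and 4 of the 6 fell by limma. The 7 measured neuronal markers (of 8) summed to 637 to 914 in otd-uvi and 1231 to 1296 in Canton S, and all 7 log2 differences were below 0 with 0 past the adjusted threshold and 4 at an unadjusted p under 0.05. The 4 tendon cell markers, for the cells that anchor muscle to cuticle, summed to 798 to 1112 in otd-uvi and 879 to 983 in Canton S, and 3 tracheal markers (of 4) to 2693 to 2970 in otd-uvi and 2545 to 2620 in Canton S. The tracheal sum came almost wholly from verm and serp, because btl did not exceed the control level on any array. Glial markers (5 of 6) summed to 2652 to 2982 in otd-uvi and 3296 to 3731 in Canton S, fat body markers (4 of 7) to 1468 to 3615 in otd-uvi and 3359 to 4625 in Canton S, with 0 markers past the adjusted threshold in limma in these 4 lists and, in the glial and fat body lists, 1 and 2 lower in otd-uvi at an unadjusted p under 0.05. The glial median log2 difference was 0.003, with 3 of the 5 markers above 0. Much of the glial sum came from Gs2, at 1334 to 1646 in otd-uvi and 1822 to 2431 in Canton S. The 7 hemocyte markers summed to 536 to 723 in otd-uvi and 469 to 496 in Canton S, with 5 of 7 above 0 and a median log2 difference of 0.55. By limma 1 of the 7 rose, NimC1, a phagocytosis receptor of blood cells, with 31.9, 32.7 and 29.0 in otd-uvi and values not well above the control level in Canton S (adjusted p = 0.0242), and at an unadjusted p under 0.05 there were 3 higher and 1 lower. Of the 7 hemocyte markers, only PPO2 (prophenoloxidase) and Pxn (peroxidasin) had the same order of arrays as Act88F and fln. The share of all probe sets with that order was not counted. The markers Hml and crq were instead highest on Canton S 2, with log2 differences of -0.31 and -0.96. PPO2 (142220_at) gave 47.9, 101.6 and 90.2 in otd-uvi, and 19.1 and 14.0 in Canton S (adjusted p = 0.0886 in limma), and Pxn 209.9, 297 and 228 in otd-uvi, and 197 and 123 in Canton S (adjusted p = 0.299 in limma). Of the summed levels, that of the flight-muscle genes was the one in which Canton S 2 lay far below the other 4 arrays. The 8 sarcomere genes together summed to 20529 to 24529 in otd-uvi and 19829 to 20118 in Canton S. Of that sum Mlc2, close to the top of the signal range, gave 9461 to 9562 in otd-uvi and 9746 to 9897 in Canton S. The median log2 difference of the 8 genes was -0.01, with 4 above 0 and 4 below. The part of the marker shifts in the sarcomere values was not tested.

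The mean 3-prime to 5-prime ratio was highest on otd-uvi 3, the array on which both measured sls probe sets and the dimmer one for bt were lowest. It was next highest on otd-uvi 2, where both these sls probe sets and the brighter one for bt were highest. It was lowest on otd-uvi 1, where the brighter one for bt was lowest. What part the ratio had in these values was not tested. With the ratio as a covariate the log2 difference of the brightest sls probe set was 0.25 in place of -0.07 and that of the dimmer bt probe set -0.07 in place of -0.64. Under the same covariate Act88F was at 1.15 (adjusted p = 0.447 in limma), fln at 1.06 (adjusted p = 0.496 in limma) and TpnC4 at 0.63 (adjusted p = 0.679 in limma).

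Other genes of the sarcomere came from 3 lists of 24 structural genes, of which 17 were measured. None of the 17 passed the adjusted threshold in limma, and 1 higher and 1 lower in otd-uvi had an unadjusted p under 0.05. Of the 17, 13 were below 0, with a median of -0.18. Over all 13966 probe sets tested, 6253 were below 0. The 398 with a mean signal over 1000 had a median of -0.07, and 268 of them were below 0. Of the 17, TpnC4, Mlp60A, Strn-Mlck and Zasp67 were dimmer than that. Zasp67, counted among the 13, exceeded the control level on 1 of 3 otd-uvi arrays and 1 of 2 Canton S arrays. The 4 of the 17 above 0 were TpnC4, the muscle LIM protein gene Mlp60A, Strn-Mlck and TpnC73F.

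**Figure D5:**
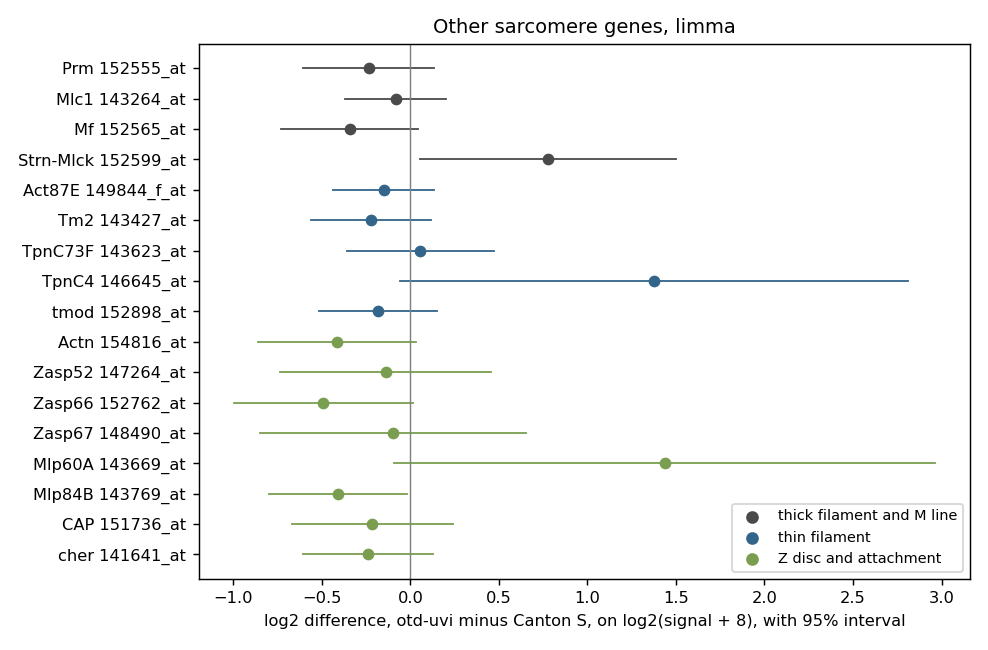
Log2 differences with 95% intervals from limma (otd-uvi minus Canton S, on log2(signal + 8)) for 17 other measured sarcomere genes, coloured by their place in the sarcomere. TpnC4, Mlp60A and Strn-Mlck lie to the right at 1.38, 1.44 and 0.78, and most of the others lie between -0.5 and 0.

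In the thick filament and M line list 4 of 6 genes were measured. Prm (paramyosin, the core of the filament) was at -0.24, Mf (myofilin) at -0.34 and Mlc1 (the essential myosin light chain) at -0.08, with adjusted p of 0.389 to 0.776 in limma. Strn-Mlck (152599_at), which encodes stretchin and a myosin light chain kinase, was the exception, at 134, 290.3 and 185 in otd-uvi, against 99.7 and 120.1 in Canton S. Its groups did not overlap, and the log2 difference was 0.78 (SE 0.31, 95% interval 0.06 to 1.50, adjusted p = 0.299 in limma). Unlike Act88F, it was not lowest on Canton S 2. A dimmer probe set for Strn-Mlck (143736_at) was at 0.07 with overlapping groups (95% interval -0.76 to 0.90), and the difference between the probe sets was not tested.

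Of 9 thin filament genes 5 were measured. The actin gene Act87E (149844_f_at, a probe set shared within the actin family) was at -0.15, the tropomyosin gene Tm2 at -0.22 and tmod (tropomodulin, which caps the filament) at -0.18, with adjusted p of 0.507 to 0.589 in limma. Of the dimmer probe sets for tmod, 150900_at was at 0.72 (95% interval -0.14 to 1.57) with the otd-uvi arrays all higher. Its signal on otd-uvi 1 was 21.2, under the control level of 22.9 there. The other, 150899_at, was under the control level on 4 of the 5 arrays. With its probe sets averaged, tmod was at -0.03. Act87E and Tm2 did not overlap between the groups and were lower in otd-uvi, which held for 15.4% of all probe sets. TpnC73F, a troponin C isoform of other muscles, was named for comparison with TpnC4 after its value was seen, and its log2 difference was 0.06.

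The Z disc and attachment list had 8 of 9 genes measured and 7 below 0. Zasp66, a PDZ-domain protein of the Z disc, was at -0.49 (adjusted p = 0.345 in limma), Actn (alpha-actinin, the cross-linker of the Z disc) at -0.42 (adjusted p = 0.363 in limma) and Mlp84B, a muscle LIM protein, at -0.41 (adjusted p = 0.312 in limma). All 3 were lower on each otd-uvi array than on either Canton S array, as were 15.4% of all probe sets. Mlp60A (143669_at), another muscle LIM protein gene, gave 65.8, 94.4 and 57.5 in otd-uvi, and 59.4 and 4.67 in Canton S. Its low value on Canton S 2 was under the control level and the groups overlapped (log2 difference 1.44, SE 0.65, adjusted p = 0.358 in limma). Without Canton S replicate 2 the log2 difference of Mlp60A was 0.23 and that of Zasp66 -0.17.

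Beyond the filaments, 1 of 7 measured genes of muscle calcium and excitation fell and 0 rose by limma. The gene that fell was slo (153878_at), a calcium-activated potassium channel of neurons as well as muscle, with signals of 131, 243 and 184 in otd-uvi, against 527 and 619.5 in Canton S. The groups lay well apart (log2 difference -1.62, SE 0.25, adjusted p = 0.0437 in limma), but slo did not pass without any 1 of the 5 arrays, where it ranged from -1.82 to -1.40. Calx, the sodium-calcium exchanger, was at -0.78, the calcium channel gene Ca-alpha1T at -0.83 and the potassium channel gene Shaw at -0.65, with adjusted p of 0.245 to 0.542 in limma. A dimmer probe set for Shaw was not well above the control level in otd-uvi and had 28.9 and 23.2 in Canton S, and the other 2 for Ca-alpha1T were at -0.73 and -0.22. The Ca-alpha1T probe sets were all under the control level on otd-uvi 1. Without that array the first was at -0.22, and the others were at -0.30 and 0.23. These channels and exchangers serve neurons and photoreceptors too.

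Of 13 genes of muscle transcription and differentiation 7 were measured, and 0 passed by limma, with 1 at an unadjusted p under 0.05. That gene was zfh1 (141676_at), a zinc-finger and homeodomain repressor found in muscle precursors and other cells. It gave 78.5, 87.2 and 95.2 in otd-uvi, and 7.31 (under the control level) and 29.0 in Canton S (log2 difference 1.99, SE 0.39, adjusted p = 0.0856 in limma). The Canton S arrays differed widely from each other and lay below all otd-uvi arrays. The myogenic genes twi, lmd and vg act early in muscle formation. Both twi and vg exceeded the control level on 1 of 3 otd-uvi arrays and 0 of 2 Canton S arrays, so no fold is given for them, and lmd was at 0.67 with overlapping groups (adjusted p = 0.444 in limma).

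Muscle energy supply had 7 of 10 genes measured and 0 past the adjusted threshold in limma, with 1 at an unadjusted p under 0.05. Argk1 (arginine kinase, which buffers ATP) gave 2205, 2691 and 2625 in otd-uvi, and 3240 and 3274 in Canton S, with no overlap between the groups (log2 difference -0.38, SE 0.13, adjusted p = 0.250 in limma), while a dimmer probe set for Argk1 was at 0.05. The glycolytic genes Pfk, Ald1 and Gapdh1 were at -0.33, -0.18 and 0.16. Of 6 non-muscle counterparts of the members 1 was measured, the non-muscle myosin light chain gene Mlc-c, at 0.03 (95% interval -0.43 to 0.50).

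By profile, the genes most like the mean of the 8 members over the 5 arrays were Npc2c, Cyt-b5-r, caz, l(3)L1231 and NaPi-T, at Euclidean distances of 0.11 to 0.16 on centred log2 values among 7330 probe sets above the controls. That mean profile was high on otd-uvi 2, at 0.49, and low on Canton S 2, at -0.33. Act88F and fln set that low value, since their own mean was -1.64 there. Canton S 2 was the lowest array for no other member. Against the mean of Act88F and fln, a comparison added after the values were seen, the nearest were inaE, CG32440, CG15615, CG7432 and uncNacbeta, at distances of 0.50 to 0.60. TpnC4 came 22nd of the 7330 by nearness to this pair, at 0.80, and 7174th by nearness to the mean of the 8 members, at 1.85. The nearest gene to this pair, inaE (145037_at), gave 55.6, 71.1 and 58.2 in otd-uvi, and 42.8 and 9.86 in Canton S. With 5 arrays and so many probe sets, close profiles are a description of these arrays.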

How the data were processed

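Total RNA of each sample was the starting material for 1 Affymetrix Drosophila array. The authors deposited linear signal intensities made with MAS5, per the submitters' processing notes; version, settings and scaling target are not given in the sources used here. Of 14010 probe sets, 44 controls were left out. A table of array annotation gave 1 gene for 12443 of the 13966 others, several for 327 and none for 1196; 12394 names were updated by gene identifier. No genome build is named, so positions are not given.

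After adding 8 (the 20th percentile of all signals, rounded), log2 signals of all probe sets entered one model in limma 3.58.1 (R 4.3.3; lmFit and eBayes, with an intensity trend, strain as the only term, 3 residual and 4.16 prior degrees of freedom) and Benjamini-Hochberg adjustment over 13966 probe sets. The pipeline was tested on simulated data. The brightest probe set stood for a gene. Members, lists and tests were chosen with earlier results of these data known. Named were all members, oc, list genes past the threshold, up to 4 genes per list with the largest difference, non-muscle counterparts and the 5 nearest profiles; exceptions are marked. The number of arrays limits the precision.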

Additional observations from a re-analysis of the deposited data

How the results depend on the processing

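The number of sarcomere genes past the threshold was 0 in limma under all 16 alternatives: quantile normalization, median centring, cyclic loess, a pseudocount 4 times larger, a floor at the 1st percentile, a filter on the dimmest 40% of probe sets, a variance prior without trend, weighted arrays, a replicate block, the 3-prime to 5-prime ratio as an added covariate, the mean over a gene's probe sets, and leaving out each array. Act88F and fln stayed above 0 in all 16. Their groups did not overlap, so leaving out 1 array or changing the pseudocount, floor, filter, prior or weights could not reverse that sign. The count over all probe sets, 108, was 200 without the dimmest 40%, 8 with the ratio as a covariate and 2 to 22 without 1 array. Nothing in the labels pairs arrays of the same replicate number, whose deviations correlated at -0.0045 and 0.12. With them as a block 1 probe set passed and the members' median was 0.23. Only otd-uvi has a replicate 3, so the block left that array no part in the log2 differences. The block's differences therefore equalled those without otd-uvi replicate 3, where the median was also 0.23. Without 1 array that median ran from -0.046 to 0.23 and the flight-type minus general difference from 0.64 to 2.39. Values near 0 changed sign. Under quantile normalization TpnC41C was at 0.036, the brightest sls probe set at 0.072 and Mlc1 at 0.0072, and Mlc2 at 0, since its rank was the same on all arrays. Under cyclic loess TpnC41C was at 0.030 and that sls probe set at 0.055; under median centring up was at -0.028 and Mlc-c at -0.027. With the ratio as a covariate Mlc1 was at 0.011 and sls at 0.25; with the block sls was at 0.37; with probe sets averaged sls was at 0.15 and up at -0.054. Without 1 array, TpnC41C ran from -0.14 to 0.027, the sls probe sets from -0.44 to 0.37 and from -0.091 to 0.31, the up probe sets from -0.097 to 0.096 and from -0.35 to 0.054, and Mlc-c from -0.14 to 0.20. Of the named genes outside the members, slo lost its call in 9 of 16 alternatives and zfh1 passed without the dimmest 40%. Fits without 1 Canton S array take the spread of the lone array from otd-uvi.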
